A study of Arabidopsis thaliana with 2 samples.

Results

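*CEP1*, *SAG12* and the vacuolar processing enzyme (VPE) genes *α-VPE*, *β-VPE* and *δ-VPE* encode cysteine proteases of plant vacuoles and of dying cells. They are described here in stems of Arabidopsis *cep1* mutants and of wild-type (WT) plants. The 5 genes were taken by their gene identifiers from the deposited stem table of 733 genes. That table was restricted to genes the authors scored as lower in *cep1*, so membership already fixes the direction of every difference given. RNA was sequenced from mature stems of 1 *cep1* sample and 1 WT sample. The *cep1* plants are homozygous for a T-DNA insertion in the third exon of *CEP1*, and the WT is Columbia-0. The sample labels give untreated plants at 25 d after flowering and 20 °C for both genotypes, whereas the methods give another temperature and collection at a shared final stage, when flowering had stopped, in plants of which *cep1* grew about a week behind. Age and genotype can therefore not be told apart, and no source says how many plants each sample held.

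Papain-like cysteine proteases and VPEs are made as inactive precursors and are activated by proteolysis. CEP1 is a papain-like protease with a KDEL tail, a signal for retention in the endoplasmic reticulum, and is known from the programmed death of the tapetum, the layer that feeds pollen in the anther. SAG12 is a papain-like protease of senescence-associated vacuoles and a classic marker of leaf senescence. VPEs belong to the legumain family, cut proteins after asparagine residues and activate other vacuolar proteins. In Arabidopsis, α-VPE is linked to vegetative organs and stress, β-VPE to the processing of seed storage proteins, and δ-VPE to the death of an inner cell layer of the seed coat.

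The coding sequence around the catalytic cysteine is shown because it sets the families apart. The capitals mark the cysteine codon, which a script found from the papain or legumain motif in RefSeq coding sequences of the TAIR10.1 assembly. It is codon 150 of *CEP1*, 154 of *SAG12*, 204 of *α-VPE*, 211 of *β-VPE* and 206 of *δ-VPE*. In *CEP1* (chr5:20456040-20456153, plus strand) and *SAG12* (chr5:18613747-18614045, plus strand) an intron interrupts the stretch and has been removed.
CEP1: caatgcgggagtTGTtgggcgttttca
SAG12: agctgcggatgtTGTtgggcgttttca
α-VPE: tatttggaggctTGTgaatctggaagt
β-VPE: tacgtagaagcgTGTgaaagtgggagt
δ-VPE: tatgttgaagcaTGTgaatcaggaagt
The VPE stretches each lie within 1 exon, at chr2:11064743-11064769 (minus strand), chr1:23225238-23225264 (minus strand) and chr3:7053449-7053475 (plus strand). From the cysteine codon onwards the *CEP1* and *SAG12* stretches are the same, and all 5 genes use the codon TGT.

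The end of the coding sequence is shown for *CEP1* and *SAG12* because CEP1 is described as a KDEL-tailed protease. The capitals mark the KDEL codons, and each sequence ends with the stop codon.
CEP1: ttggactcgcttAAGGATGAACTCtaa
SAG12: atgaaagcttcttacccaactatatga
The *CEP1* stretch lies at chr5:20456836-20456862 in exon 3, the exon that carries the insertion, and the *SAG12* stretch at chr5:18614733-18614759, also in exon 3, both on the plus strand. Of the 5 genes *CEP1* alone ends in KDEL codons. Read counts are given per gene, so they do not show on which side of the insertion the *CEP1* reads of the *cep1* library lay.

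The totals recovered from counts, gene lengths and FPKM (read counts scaled by gene length and library total) were 22077141 reads in *cep1* and 20962056 reads in WT. Each log2 ratio (*cep1* over WT) used raw counts divided by the scaling factors of the authors' normalized counts, 20.3 for *cep1* and 22.8 for WT. Scaling to the recovered totals instead lowered every log2 ratio by 0.24. Ratios of *cep1* to WT are given with exact (Clopper-Pearson) 95% intervals and FPKM values with exact Poisson intervals. Comparisons between genes, as FPKM ratios or differences of log2 ratios, have approximate 95% intervals from the sum of the reciprocal counts. These are rough where counts are low. All of these intervals cover counting error only. PCR copies of a molecule could not be recognised, and such copies would make the intervals too narrow. There were no replicates, so no difference could be compared with plant-to-plant spread, and no p-value was computed. In whole stems, fewer cells of a type and less RNA per cell cannot be told apart.

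All 5 genes were lower in the *cep1* library, by 4.96-fold for *β-VPE*, 11.4-fold for *SAG12*, 48.0-fold for *α-VPE*, 75.5-fold for *CEP1* and at least 150-fold for *δ-VPE*. All 5 had a log2 ratio of -1 or below, the threshold of the study, as did 100% of the 733 genes, so this count carries no information about them. The whole counting interval lay at or below -1 for all 5 genes and for 90.2% of the table. At an 8-fold difference, a log2 ratio of -3, the 5 genes separated. The ratios of *CEP1*, *SAG12*, *α-VPE* and *δ-VPE* lay at or below -3, whereas that of *β-VPE* did not, against 28% of the table. The median log2 ratio of the 5 genes was -5.59, and that of the table was -1.86. The genes past -3 and this median include *CEP1*, the gene disrupted in the mutant, and the median was not computed without it.

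*CEP1* (AT5G50260, chr5:20455317-20457068, plus strand, 3 exons in TAIR10.1) had 15 reads in *cep1* and 1269 reads in WT. Its FPKM was 0.441 in *cep1* (interval, 0.247 to 0.727) and 39.3 in WT (37.2 to 41.5). The log2 ratio was -6.24 (-7.08 to -5.51), so the disrupted gene was low in the library labelled *cep1*. A lower ratio or bound was found for 95 genes of the table, 59 of which had no read in *cep1*. The gene mutated in *cep1* was thus not the one with the lowest ratio.

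*SAG12* (AT5G45890, chr5:18613239-18614963, plus strand, 3 exons) had 759 reads in *cep1* and 9691 reads in WT. It was the most abundant of the 5 genes in both libraries, at 27.4 FPKM in *cep1* (25.5 to 29.5) and 369 FPKM in WT (362 to 376). In WT, 36 of the 733 genes had a higher FPKM. The log2 ratio was -3.51 (-3.62 to -3.40). *SAG12* accounted for 79.4% of the summed FPKM of the 5 genes in *cep1* and for 78.9% in WT, so its share hardly differed between the libraries.

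*α-VPE* (AT2G25940, chr2:11063301-11066184, minus strand, 8 exons) had 5 reads in *cep1* and 269 reads in WT. It had the lowest WT level of the 5 genes, 7.82 FPKM (6.92 to 8.82), against 0.138 FPKM in *cep1* (0.0448 to 0.322). The log2 ratio of -5.59 had the widest interval of the genes with reads, from -7.22 to -4.35, owing to the 5 reads. In RefSeq the gene overlaps the 3′ end of AT2G25930 on the opposite strand by 24 bp. No source says that counting used strand, so reads from that overlap cannot be assigned.

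*β-VPE* (AT1G62710, chr1:23223874-23226983, minus strand, 9 exons) had 247 reads in *cep1* and 1372 reads in WT. Its FPKM was 6.52 in *cep1* (5.73 to 7.39) and 38.1 in WT (36.2 to 40.2). The log2 ratio of -2.31 (-2.51 to -2.11) was the closest to 0 among the 5 genes. A total of 297 genes of the table had a lower ratio or bound.

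*δ-VPE* (AT3G20210, chr3:7052347-7054743, plus strand, 8 exons) had 0 reads in *cep1* and 505 reads in WT. Taking 3 reads as the limit for a count of 0 gave 0.0769 FPKM in *cep1*, against 13.6 FPKM (12.5 to 14.9) in WT. From 3 reads the log2 ratio was at most -7.23, and the exact limit, which is more cautious, was -6.93. No reads in *cep1* were found for 8.32% of the table. The gene model of *δ-VPE* is uncertain. The deposited table lists it with a span of 3071 bp, 674 bp more than the 2397 bp in RefSeq, where the next gene, AT3G20220, starts after a gap of 84 bp. The listed span thus exceeds the RefSeq span by more than this gap. If the table's coordinates are those of TAIR10.1, a build the table does not name, the span covers 625 of the 629 bp of AT3G20220, which lies on the same strand and has no entry of its own in the table. The 505 reads and 13.6 FPKM in WT may therefore include reads of AT3G20220. RefSeq also places AT3G03955 on the opposite strand, overlapping *δ-VPE* by 220 bp. The WT FPKM corresponded to a length of 1767 bases instead of the 1852 listed, which raised it 1.05 times, whereas the FPKM of the other 4 genes matched their listed lengths. At least 156 of the 733 genes had a listed length above that behind their FPKM, so this mismatch is not particular to *δ-VPE*.

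**Figure D1:**
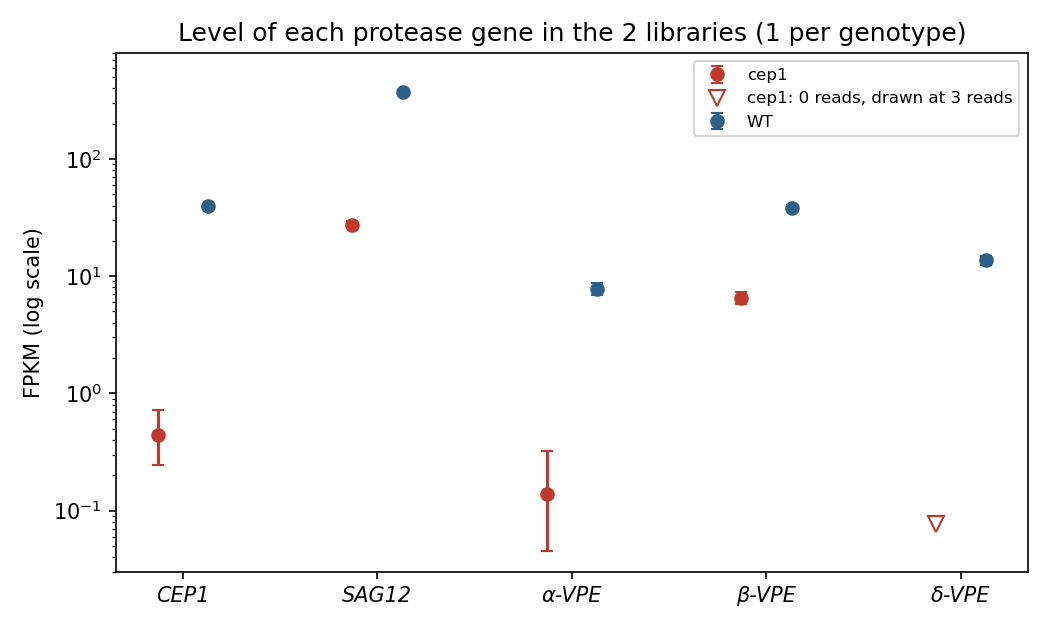
FPKM of the 5 genes on a log axis, with *cep1* on the left and WT on the right of each pair (1 library each). Bars are exact 95% Poisson intervals of the counts, and the open triangle marks *δ-VPE*, which had 0 reads in *cep1* and is drawn at the 0.0769 FPKM of 3 reads. Every *cep1* point lies below its WT partner, and *SAG12* is highest in both libraries.

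The order of levels differed between the libraries. In *cep1* it was *SAG12*, *β-VPE*, *CEP1*, *α-VPE* and *δ-VPE*, and in WT it was *SAG12*, *CEP1*, *β-VPE*, *δ-VPE* and *α-VPE*. In WT *CEP1* and *β-VPE* were indistinguishable by counting error, with an FPKM ratio of 1.03 (0.954 to 1.11). In *cep1* the same ratio was 0.0676 (0.0402 to 0.114), so *CEP1* was far below *β-VPE* there. *CEP1* and *α-VPE* differed in *cep1* by a ratio of 3.19, with a wide interval from 1.16 to 8.78. *α-VPE* and *δ-VPE* could not be ordered in *cep1*, because 0 reads allow a level within the interval of *α-VPE*, whereas in WT *α-VPE* stood at 0.574 times *δ-VPE* (0.495 to 0.665).

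The sizes of the differences also varied by more than counting error. The log2 ratio of *CEP1* lay below that of *β-VPE* (difference -3.93, interval -4.69 to -3.17) and below that of *SAG12* (-2.73, -3.47 to -1.99). That of *SAG12* lay below that of *β-VPE* by less (-1.20, -1.42 to -0.98). Between *CEP1* and *α-VPE* the difference was -0.65, and its interval from -2.13 to 0.82 spanned 0.

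Among the 3 VPE genes of the table the 2 libraries differed in composition as well as in level. The 3 genes together had 6.66 FPKM in *cep1* and 59.6 FPKM in WT, from 252 reads in *cep1* and 2146 reads in WT. *β-VPE* made up 97.9% of that sum in *cep1* and 64.0% in WT. The reads of *γ-VPE*, which the paper describes as a vegetative VPE with high expression in stems, were not analysed here, because the table does not list it. These shares are therefore not those of all VPE genes in the stem, and the *δ-VPE* part may include reads of AT3G20220.

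**Figure D2:**
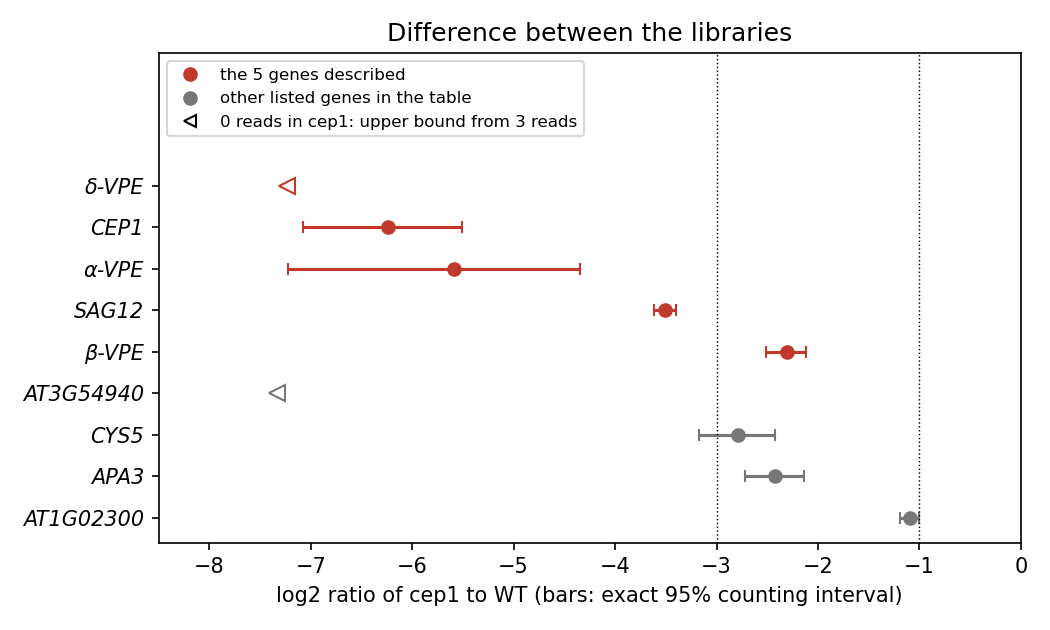
Log2 ratio of *cep1* to WT for the 5 genes (red) and for other listed proteases, inhibitors and cell death genes in the table (grey), with exact 95% counting intervals. Open triangles are upper bounds for genes with 0 reads in *cep1*, and dotted lines mark -1 and -3. The interval of *β-VPE* (-2.51 to -2.11) lies to the right of -3, and those of *CEP1*, *SAG12* and *α-VPE* lie to the left.

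The table held 690 of 27562 protein-coding genes in RefSeq, or 2.5%, the share to read beside the following counts of listed genes. The 5 genes described were chosen from the table, so their own presence was fixed. Only the counts of other genes can be set beside that share. Of 32 papain-like protease genes, 4 were present, the chosen *CEP1* and *SAG12* and 2 others, AT3G54940 and AT1G02300. AT3G54940, a papain family gene, had 0 reads in *cep1* and 543 reads in WT, a log2 ratio of at most -7.34. AT1G02300 had 1204 reads in *cep1* and 2886 reads in WT, and its log2 ratio of -1.10 had an interval that reached just above the threshold of -1. Of 5 legumain family genes the 3 chosen VPEs and 0 others were present. Of 9 metacaspase genes, which encode another cysteine protease family linked to cell death, 0 were present. Genes missing from the table may have been unchanged, higher or too low to test, and were not analysed here.

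Inhibitors and other cell death genes gave 2 further values. Of 9 genes for cystatins and other inhibitors of cysteine proteases, 1 was present, the cystatin gene *CYS5*, with 68 reads in *cep1* and 526 reads in WT (log2 ratio -2.79, interval -3.17 to -2.42). Of 10 marker genes of developmental cell death, the chosen *CEP1* and 1 other, the aspartic protease gene *APA3*, were present. *APA3* had 114 reads in *cep1* and 685 reads in WT (log2 ratio -2.42). The xylem proteases *XCP1* and *XCP2*, which are on that list, were not in the table.

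In the deposited annotation, examined after the values were seen, the 5 genes share the terms cysteine-type endopeptidase activity and vacuole. The term cysteine-type endopeptidase activity was assigned to 8 genes of the table, the 5 described here and 3 others. Of the 3 others, AT3G54940 and AT2G04170 had a log2 ratio or bound of -3 or below, as did 28% of the table, and AT1G02300 did not. AT2G04170, a TRAF-like family gene, had 25 reads in *cep1* and 778 reads in WT (log2 ratio -4.80). Vacuole was assigned to 46 genes with a median log2 ratio of -1.62, against -1.86 over the table. Protein storage vacuole was assigned to the 3 VPE genes and 6 others, and senescence-associated vacuole to *SAG12* alone.

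**Figure D3:**
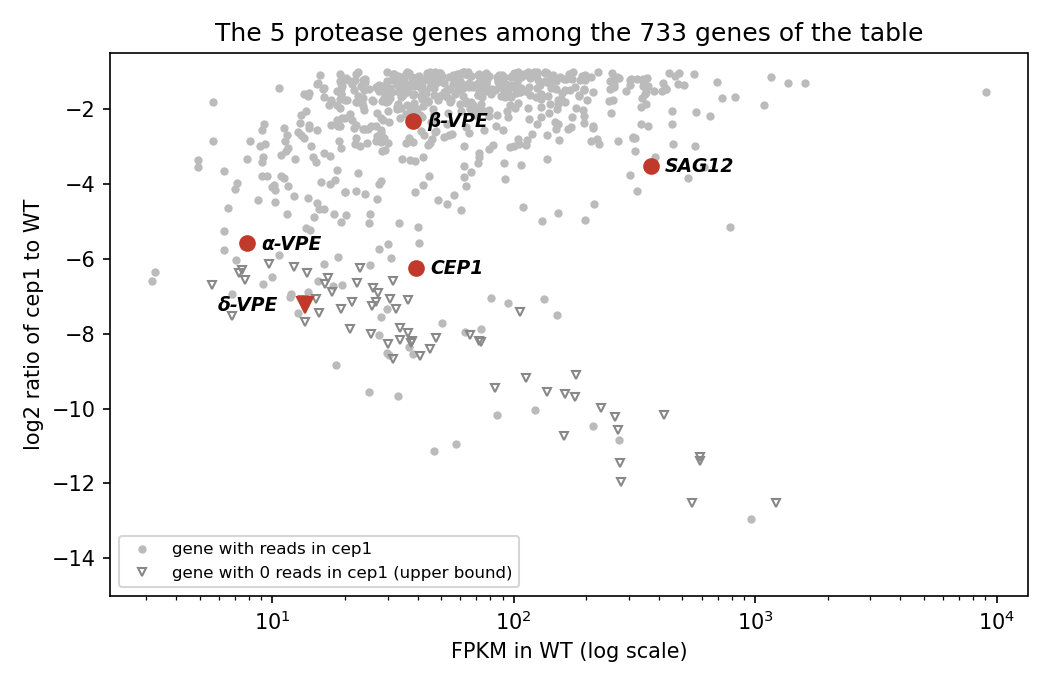
Log2 ratio of *cep1* to WT against WT FPKM (log axis) for the 733 genes of the table, 1 point per gene, with the 5 protease genes in red. Triangles are genes with 0 reads in *cep1*, drawn at the upper bound from 3 reads. *SAG12* lies towards the right at 369 FPKM, *α-VPE* at the left at 7.82 FPKM, and *CEP1* and *β-VPE* have like WT levels but log2 ratios of -6.24 and -2.31.

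The table also held seed genes, for which membership likewise fixed a lower value in *cep1*, so the direction they share with the VPE genes carries no information. VPEs cut the precursors of seed storage proteins, and all 9 listed storage protein genes, 12S cruciferins and 2S albumins, were in the table with 0 reads in *cep1* and between 1305 and 19882 reads in WT. The 3 oil body marker genes had 15 reads in *cep1* and 9949 reads in WT in sum. Of 3 seed coat markers, *TT10* had 0 reads in *cep1* and 1370 reads in WT, *TT8* had 72 reads in *cep1* and 491 reads in WT, and the other was not in the table. Reads in *cep1* numbered 759 for *SAG12*, 247 for *β-VPE*, 15 for *CEP1*, 5 for *α-VPE* and 0 for *δ-VPE*. The storage protein genes were at 0 there, whereas the seed coat marker *TT8* was still detected. None of 3 tapetum markers and none of 6 xylem markers was in the table. The xylem markers include *CESA4*, *CESA7* and *CESA8*, which the paper reports as up-regulated in *cep1*, and a table of lower genes cannot hold such genes. The labelled tissue could therefore not be checked by these markers. The part of seed tissue in the differences of the VPE genes was not tested.

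Of 11 listed senescence genes 6 were in the table, which held 2.5% of all protein-coding genes. These 6 were *SAG12*, present by choice, and 5 others. Without *SAG12* the median log2 ratio of the other 5 was -2.44, against -1.86 over the table. The ribonuclease gene *RNS1* had 15 reads in *cep1* and 553 reads in WT, and the sugar transporter gene *SWEET15* had 1 read in *cep1* and 905 reads in WT. The NAC gene *ATNAC2* had a log2 ratio of -2.44, *NAC029* of -1.50 and the chlorophyll degradation gene *SGR1* of -1.41. *SAG12* thus lay between *RNS1* (-5.04) and *ATNAC2*, and had the largest counts of the 6 genes.

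The genes closest to each of the 5 in level were found from log2(FPKM + 0.1) over the 2 libraries, a measure that ranks level and difference together and rests on 2 points. *β-VPE* was closest to AT1G52565, of unknown function (distance 0.055), with 6.73 FPKM in *cep1* and 37.3 FPKM in WT, then to *UGT75D1* and *ZHD11*. *SAG12* was closest to the adenine phosphoribosyltransferase gene *APT2* (distance 0.27), with 30.9 FPKM in *cep1* and 319 FPKM in WT, then to *MT2B* and AT1G11700. *CEP1* was closest to AT3G09950 (distance 0.35), with 0.416 FPKM in *cep1* and 31.0 FPKM in WT, then to *PPCK2* and *ENODL10*. *α-VPE* was closest to *ABCG15*, *CESA10* and AT3G28550, at distances from 0.31 to 0.41. *δ-VPE* was closest to AT3G60950, *FAE1* and *GILT*, all 3 with 0 reads in *cep1*.

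Reads shared between related genes could blur counts, so the coding sequences were compared. The longest identical stretch that each gene shares with any of 36 other genes of both families was 26 bases for *CEP1* (with AT1G47128), 22 for *SAG12*, 37 for *α-VPE* (with *γ-VPE*, AT4G32940), 25 for *β-VPE* and 17 for *δ-VPE*. Over aligned bases *α-VPE* was 82.8% identical to *γ-VPE*, and 66.7% to *β-VPE*. *CEP1* and *SAG12* were 67.0% identical. The read length is not given in the sources used here.

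The promoters, taken as 250 bases before to 50 bases after the RefSeq start, were searched on both strands for CATGCA, the core of the RY element of seed genes, CACGTG, the G-box, and TTGAC, the core of the W-box. CATGCA was found in the *δ-VPE* promoter alone of the 5, against 9.69% of 27561 protein-coding promoters and 17.2% of the 690 promoters of table genes. CACGTG was in 0 of the 5 promoters, against 7.65% of all promoters and 14.3% of those of table genes. TTGAC was in that of *α-VPE* alone, against 50.4% of all promoters and 48.7% of those of table genes. The *δ-VPE* promoter (chr3:7052097-7052396, plus strand, TAIR10.1) is shown because it belongs to the gene without reads in *cep1*, with CATGCA in capitals.
δ-VPE: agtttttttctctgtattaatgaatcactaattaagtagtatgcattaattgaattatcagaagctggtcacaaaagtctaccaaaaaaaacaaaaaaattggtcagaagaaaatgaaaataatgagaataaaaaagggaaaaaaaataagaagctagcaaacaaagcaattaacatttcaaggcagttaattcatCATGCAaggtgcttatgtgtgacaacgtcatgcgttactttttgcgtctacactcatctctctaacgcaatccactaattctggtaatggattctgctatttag
The motif begins 54 bases before the start, and a match describes letters in this window, not binding.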

How the data were processed

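Stem RNA of 1 *cep1* and 1 WT sample was sequenced. The submitters' processing notes name TopHat2 2.0.12, Bowtie2 2.2.3 and HTSeq 0.6.1, and the genome build is not given in the sources used here. The deposited table, made by the authors, holds raw counts and FPKM per gene and normalized read counts, a signal in which each count is divided by 1 factor per library and values under 1 appear as 0. Their log2 ratios, p-values and adjusted p-values and 2 columns of group FPKM were not used.

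Library totals were the median of those implied by count, length and FPKM for genes with at least 1000 reads. No count model was fitted, as there were no replicates, and log2 ratios and exact 95% intervals were computed with Python 3.11.15 and scipy 1.17.1, and tested on simulated data. A fold against 0 reads is a lower bound from 3 reads. The 5 genes, list members in the table and the 3 nearest genes of each were named. AT2G04170 and oil body and seed coat markers were named by annotation or marker list. The genes and lists were chosen with earlier results of these data known. Sequences are from RefSeq, TAIR10.1, and all 5 identifiers matched. Alternatives were other scalings, FPKM with pseudocounts of 0.1 and 1, count filters and assumed variation between plants.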

Additional observations from a re-analysis of the deposited data

How the results depend on the processing

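All 5 genes stayed lower in *cep1* under every alternative that gave a value, a direction already fixed by membership of the table. Of 39 values, some are ratios under the read filters, which cannot change a ratio. In all, 13 of the 39 left the counting interval of the ratio or, for counts of genes, moved by over 1.5 times. These 13 are given here with 1 other count. For *SAG12* the log2 ratio was -3.75 with library totals, -3.67 with raw counts, -3.74 with a pseudocount of 0.1 on FPKM and -3.70 with 1. For *β-VPE* it was -2.55 with library totals and -2.53 with a pseudocount of 0.1. A pseudocount of 1, which weighs low levels less, gave -4.81 for *CEP1*, -2.95 for *α-VPE* and -3.87 for *δ-VPE*, and left 3 genes past the 8-fold difference. A minimum of 10 reads in both libraries removed *α-VPE* and *δ-VPE* and left 3 genes past the -1 threshold and 2 past -3. A minimum of 20 reads also removed *CEP1* and left 2 and 1. If plants are taken to vary with a coefficient of 0.2, all 5 intervals stayed at or below -1, and with 0.4 that of *β-VPE* reached -0.70, leaving 4. These coefficients are assumptions, not measurements. The share over all genes of the table was not computed under these alternatives, so the counts describe the 5 genes only. No paired analysis was possible because each genotype has 1 library. Depth limits *CEP1*, *α-VPE* and *δ-VPE*, which had at most 15 reads in *cep1*, as did 16.9% of the table.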

Other observations

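Values of other genes annotated with peptidase activity, chosen after they were seen, were as follows. In the deposited annotation 22 genes carry peptidase activity, among them the 5 described. Of the 17 others, 6 had a log2 ratio or bound of -3 or below (35.3%), against 28% of the table. The term also covers genes described as inhibitors, so this is not a share of peptidases alone. Among the 6 is AT2G38900, a serine protease inhibitor gene with 0 reads in *cep1* and 325 reads in WT. The serine carboxypeptidase-like gene *SCPL17* had 1 read in *cep1* and 514 reads in WT. The aspartic protease gene *APA2* had 43 reads in *cep1* and 1017 reads in WT (log2 ratio -4.40), a larger difference than that of *APA3*. The matrixin family gene AT4G16640 had 19 reads in *cep1* and 291 reads in WT.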
